A study of Homo sapiens with 16 samples.

Results

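The enzymes followed here remove superoxide and hydrogen peroxide: 5 peroxiredoxins (PRDX2, PRDX3, PRDX4, PRDX5 and PRDX6), the glutathione peroxidase family members GPX1 and GPX8, the superoxide dismutases SOD1 and SOD2, and catalase (CAT). They were selected by name, as the entries of the deposited expression table that carry these 10 symbols; the selection used no threshold on measured values, but it was made with earlier results of these data known. All 10 were found among the 17552 genes with values. All 10 were also among the 11260 genes that were tested, whose FPKM averaged 1 or more. FPKM scales fragment counts to transcript length and library size, so levels can be set side by side between genes.

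The cells were HT-1080, an established human fibrosarcoma line in wide use for the study of ferroptosis, a form of cell death in which iron drives the peroxidation of lipids. There were 16 libraries in 8 groups of 2. Untreated cells formed the groups siNS (the siRNA reference), siDCAF8 (an siRNA against DCAF8), oeWDR76 (overexpression of WDR76) and siDCAF8+siLSH (siRNAs against DCAF8 and LSH), and cells of the same 4 kinds given erastin at 10 µM for 24 h formed the other 4. Erastin blocks cystine uptake by system xc- and thereby lowers glutathione. DCAF8 and WDR76 are WD40-repeat proteins that bring substrates to CRL4 ubiquitin ligases, and LSH, encoded by HELLS, is a chromatin remodeler. There was no empty-vector group beside oeWDR76, so an effect of the vector or of its delivery cannot be told apart from one of WDR76. The label of this group names no siRNA, so siRNA transfection may also differ from siNS. Any difference in library preparation could not be told apart from WDR76 either. The labels do not say whether the oeWDR76 cells were a clone or a pool. Nor do they name separate cultures behind the 2 libraries of a group, so the p-values measure only the spread between these libraries, which may be technical.

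Superoxide is turned into hydrogen peroxide by SOD1 in the cytosol and by SOD2, the manganese enzyme of the mitochondrial matrix. Hydrogen peroxide is then reduced by enzymes that differ in place and in electron donor. PRDX2 (cytosol), PRDX3 (mitochondria), PRDX4 (endoplasmic reticulum) and PRDX5 (mitochondria, peroxisomes and cytosol) draw electrons from thioredoxin or, for PRDX4, also from protein disulfide isomerases. PRDX6 and the selenoenzyme GPX1 use glutathione. GPX8 is a membrane protein of the endoplasmic reticulum without selenocysteine, and CAT breaks hydrogen peroxide down in peroxisomes without an electron donor.

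The promoters of 4 members are shown, chosen by the differences in the levels of these genes: SOD2, PRDX4 and CAT had the widest ratios between groups, and GPX8 the widest fall in siDCAF8. Each sequence is the 250 bases before a RefSeq transcription start (build GRCh38.p14), 5′ to 3′ on the gene's strand, with matches to the GC box (GGGCGG) and the CCAAT box (CCAAT), searched on both strands, in capitals; overlapping matches were counted separately. SOD2 has several RefSeq starts, and the one shown is that at or near which 6 of its 7 RefSeq transcripts in GENCODE begin. The SOD2 window lies at chr6:159693242-159693491 on the minus strand. The PRDX4 window lies at chrX:23667243-23667492, the CAT window at chr11:34438684-34438933 and the GPX8 window at chr5:55159921-55160170, all on the plus strand.
SOD2: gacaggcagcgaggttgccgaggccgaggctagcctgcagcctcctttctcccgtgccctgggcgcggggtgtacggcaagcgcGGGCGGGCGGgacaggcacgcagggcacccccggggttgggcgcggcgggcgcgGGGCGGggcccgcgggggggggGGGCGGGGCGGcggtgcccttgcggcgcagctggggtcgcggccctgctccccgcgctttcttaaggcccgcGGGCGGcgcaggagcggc
PRDX4: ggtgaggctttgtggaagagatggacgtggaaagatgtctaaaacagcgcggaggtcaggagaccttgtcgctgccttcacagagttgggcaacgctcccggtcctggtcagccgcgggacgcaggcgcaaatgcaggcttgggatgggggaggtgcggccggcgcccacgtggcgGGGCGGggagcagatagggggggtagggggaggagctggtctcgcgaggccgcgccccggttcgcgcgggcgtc
CAT: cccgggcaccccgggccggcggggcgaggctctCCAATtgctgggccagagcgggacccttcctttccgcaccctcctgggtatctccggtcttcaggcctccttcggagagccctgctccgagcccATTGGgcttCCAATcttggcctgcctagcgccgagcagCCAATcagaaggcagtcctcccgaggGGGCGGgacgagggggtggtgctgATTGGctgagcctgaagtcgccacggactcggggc
GPX8: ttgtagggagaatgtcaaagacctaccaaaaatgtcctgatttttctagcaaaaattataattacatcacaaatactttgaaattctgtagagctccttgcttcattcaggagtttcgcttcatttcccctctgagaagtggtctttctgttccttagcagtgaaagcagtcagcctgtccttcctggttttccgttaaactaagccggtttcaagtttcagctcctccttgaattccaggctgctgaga

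The SOD2 window was 80.8% G and C and held 6 GC boxes. The CAT window (68.8% G and C) held 1 GC box and 5 CCAAT boxes, and the PRDX4 window (68.4%) held 1 GC box. The GPX8 window, at 41.2%, held none of the 5 motifs searched. Over all 35116 RefSeq windows of this length, 42.6% held a GC box and 32% a CCAAT box. The antioxidant response element core (TGACNNNGC, 10.9% of all windows), the TATA box (TATAAA, 10.7%) and the NF-kB motif (9.96%) had no match in any of the 12 windows found for 8 of the 10 members. A match or its lack describes these letters only.

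DCAF8 and WDR76 moved with the labels. DCAF8 was at 38.9 and 40.43 FPKM in siNS and at 11.8 and 12.23 in siDCAF8, and WDR76 was at 3.52 and 2.89 in siNS and at 267.77 and 267.14 in oeWDR76. HELLS was lower in siDCAF8+siLSH than in siDCAF8, by 0.68 on the log2 scale without erastin and by 1.08 with it, while DCAF8 was higher there by 0.37 and 0.54. Without erastin HELLS was at 4.05 and 4.07 FPKM in siDCAF8+siLSH, level with siNS (4.05 and 3.98), and at 6.83 and 7.45 in siDCAF8. The targeted genes also differed from untreated siNS where the labels do not name them. WDR76 was higher in siDCAF8 (0.55 log2) and siDCAF8+siLSH (1.04), and in oeWDR76 HELLS was higher (1.24) and DCAF8 lower (-0.31). On the first principal component the 4 oeWDR76 libraries scored 45.7 to 48.8 and the other 12 -26.05 to -8.89. The deviation of each library from the mean of all 16, gene by gene, was also set against transcript GC content. For a 10% step in GC, the slope of these deviations lay between 0.185 and 0.232 log2 in oeWDR76 libraries. Among the remaining 12 libraries it lay between -0.16 and 0.031. These slopes are relative, so the negative values partly follow from the positive oeWDR76 ones. Library sums ran from 436290 to 503867 FPKM. Of 10 mesenchymal markers 8 averaged at least 1 FPKM (summed 2682 to 4420 per library; THY1 was under 1 in all 16), and so did the epithelial keratins KRT8 and KRT18 of 6 epithelial markers (summed 187 to 403, EPCAM and CDH1 under 1). Blood markers summed to 5.01 to 7.9 FPKM and endothelial markers to 1.05 to 4.35, and their part in the results was not tested.

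The members covered a wide span of expression. In siNS cells GPX1 had the highest level, 414 ± 9.64 FPKM (mean ± SD, n = 2 as for all means here), ahead of PRDX5 at 248 ± 12.5 FPKM, SOD1 at 155 ± 1.01, PRDX3 at 134 ± 4.65 and PRDX6 at 117 ± 1.25. PRDX2 (40.9 ± 0.035), SOD2 (39.8 ± 0.375) and PRDX4 (31.55 ± 1.05) formed a middle tier, and CAT (20.5 ± 0.474) and GPX8 (9.73 ± 0.332) were lowest. The ratio of the highest to the lowest group mean was widest for SOD2 (5.22), followed by PRDX4 (2.89), CAT (2.75), PRDX2 (2.74) and GPX8 (2.67). It was narrowest for PRDX6 (1.28) and PRDX3 (1.38). Summed over the 10 members, the level was 1211 ± 18.4 FPKM in siNS and 1680 ± 0.608 in oeWDR76, or 0.268% and 0.336% of all FPKM in these libraries. The lowest sum, 1011 ± 5.49 FPKM (0.231%), was that of erastin-treated siDCAF8 cells.

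**Figure D1:**
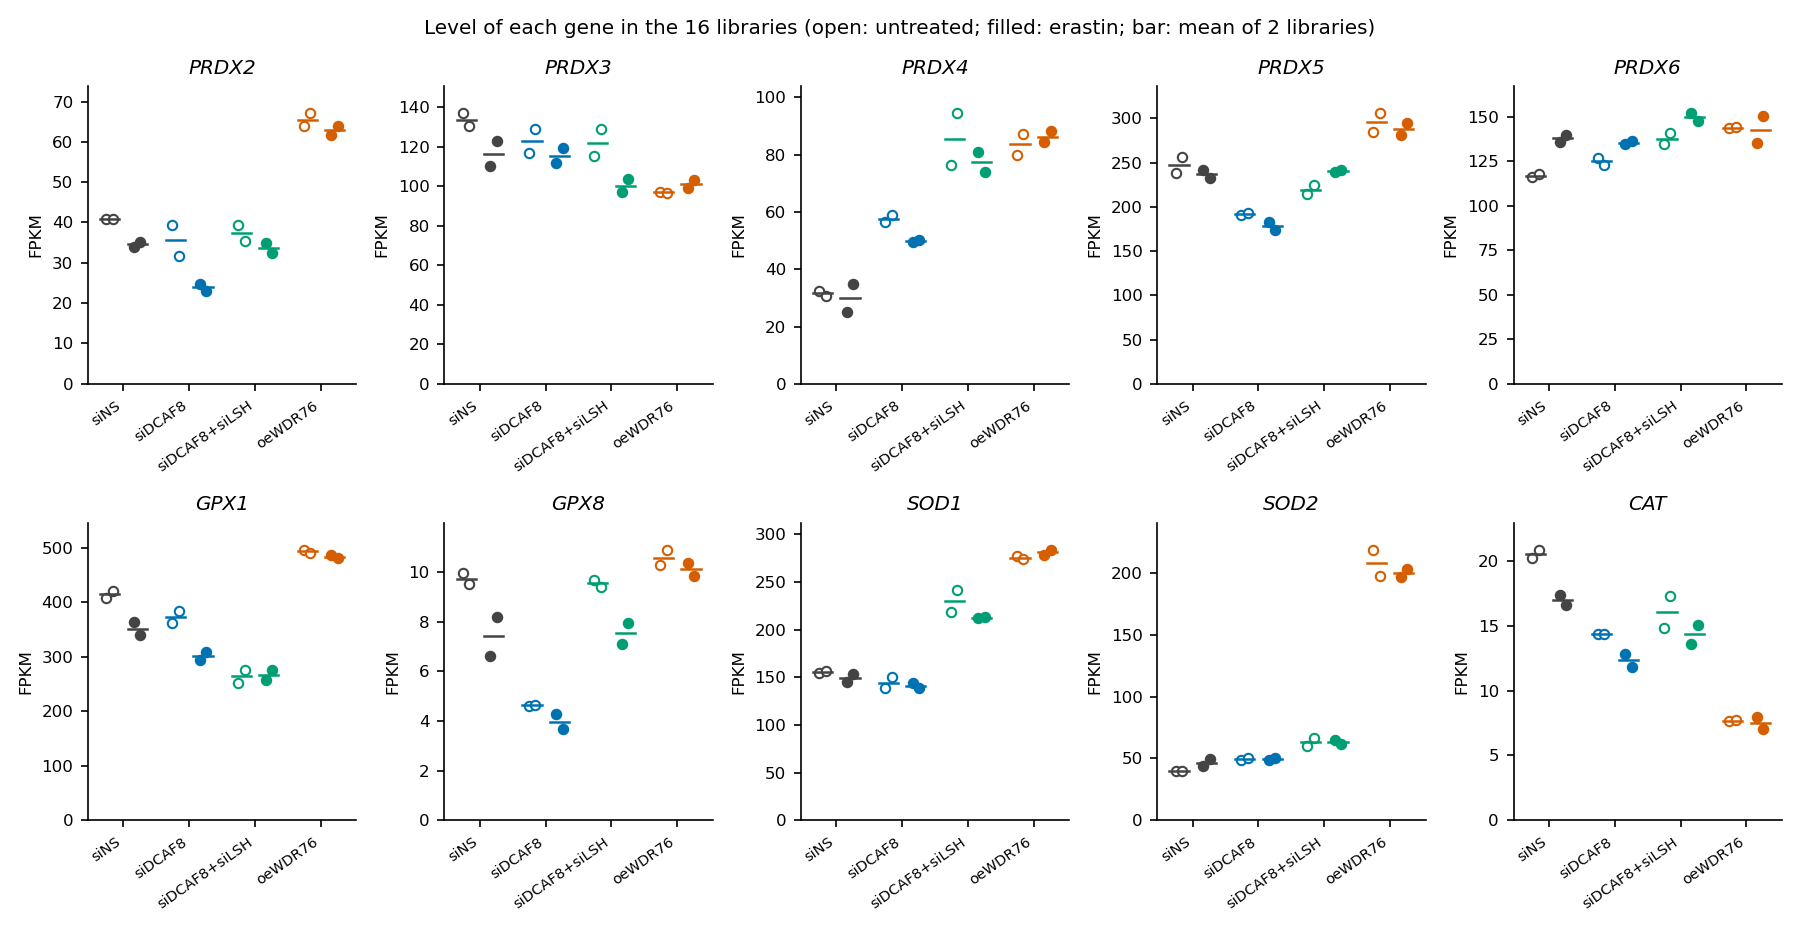
Level of each of the 10 members in every library, in 1 panel per gene with its own linear axis from 0 (FPKM) and the 4 genotypes on the horizontal axis; open points are untreated, filled points erastin-treated libraries, and bars the means of 2. SOD2 and SOD1 are highest and CAT is lowest in the oeWDR76 groups, and GPX8 is lowest in the siDCAF8 groups.

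Differences were tested with limma on log2(FPKM + 1) in 1 fit of all 16 libraries, 2-sided, with p-values adjusted by Benjamini-Hochberg over all tested genes. A gene is called changed, higher or lower where the adjusted p is under 0.05. Folds are on the FPKM plus 1 scale, which understates the change of low genes such as GPX8.

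Overexpression of WDR76 went with the widest changes in these enzymes, and SOD2 led them. SOD2 was measured at 40.11 and 39.58 FPKM in the siNS libraries and at 219.06 and 197.31 in the oeWDR76 libraries. With erastin it stood at 43.64 and 49.62 in siNS and at 197.24 and 203.05 in oeWDR76. Every oeWDR76 library was thus far above every other library, the next highest being a siDCAF8+siLSH library at 66.92 FPKM. SOD2 rose 5.11-fold in untreated cells (log2 difference 2.35, SE 0.0686, adjusted p = 2.85e-14) and 4.23-fold under erastin (2.08, adjusted p = 1.50e-13). SOD1, the cytosolic enzyme, rose 1.77-fold (0.82, adjusted p = 1.02e-09) and 1.87-fold (0.91, adjusted p = 2.44e-10), from 145.21 to 156.12 FPKM over the 4 siNS libraries to 273.73 to 284.03 over the 4 of oeWDR76. The groups did not overlap for either dismutase.

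Among the peroxiredoxins, the secretory-pathway enzyme PRDX4 rose the most. It was at 32.29 and 30.81 FPKM in siNS and at 79.78 and 87.35 in oeWDR76, and with erastin at 24.91 and 34.77 against 84.53 and 88.1. The rise was 2.60-fold in untreated cells (log2 difference 1.38, SE 0.113, adjusted p = 9.91e-09) and 2.87-fold under erastin (1.52, adjusted p = 2.34e-09), with no overlap. PRDX2, the cytosolic enzyme, was at 40.92 and 40.87 FPKM in siNS and at 63.95 and 67.14 in oeWDR76, a rise of 0.67 log2 (adjusted p = 1.06e-06). With erastin PRDX2 stood at 34.04 and 35.19 FPKM in siNS and at 61.61 and 64.04 in oeWDR76, a rise of 0.84 log2 (adjusted p = 5.41e-08). Mitochondrial PRDX3 went the other way with a log2 fall of 0.46 (-0.46, adjusted p = 1.20e-05), from 136.97 and 130.4 FPKM to 97.11 and 96.57. The PRDX3 fall with erastin was 0.20 log2 (adjusted p = 0.0141), and it lost its call without the first oeWDR76 library (adjusted p = 0.0887) or the second siNS library (0.18) given erastin, the values being between 110.2 and 122.79 against 99.08 and 103.27 FPKM.

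CAT, the peroxisomal enzyme, was the other member that fell. It was at 20.2 and 20.87 FPKM in siNS and 7.66 and 7.71 in oeWDR76, and with erastin at 17.37 and 16.62 against 7.96 and 7. The fall was 2.48-fold in untreated cells (log2 difference -1.31, SE 0.0782, adjusted p = 2.19e-10) and 2.12-fold under erastin (-1.09, adjusted p = 1.60e-09). All 4 oeWDR76 libraries lay below the other 12, in which the lowest CAT value was 11.84 FPKM. GPX8 stood at 10.26 and 10.9 FPKM in oeWDR76, with a log2 difference of 0.11 from siNS that was not called (adjusted p = 0.27) but was 0.30 and called (adjusted p = 0.00352) once libraries were corrected for GC and length. In erastin-treated cells GPX8 rose by 0.41 log2 (adjusted p = 0.000477), from 6.63 and 8.2 to 10.37 and 9.83 FPKM. The change between these GPX8 differences, 0.30 log2 (SE 0.124), was not called (adjusted p = 0.121).

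The remaining rises depended on how the libraries were normalised. Without erastin, PRDX6 was 0.30 higher on the log2 scale, PRDX5 0.25 and GPX1 0.25, all called, and with erastin GPX1 was 0.46 and PRDX5 0.28 higher, both called, while PRDX6 differed by 0.05 (adjusted p = 0.413). With quantile normalisation the PRDX6 rise without erastin was 0.05 (adjusted p = 0.349) and its difference with erastin was -0.20. Quantile normalisation also left the untreated rises of PRDX5 (0.07, adjusted p = 0.182) and GPX1 (0.08, adjusted p = 0.162) uncalled, and that of PRDX5 with erastin (0.07, adjusted p = 0.18). After a correction of each library for GC content and transcript length, PRDX5 was lower in oeWDR76 instead, at -0.16 log2 in untreated cells (adjusted p = 0.00121) and -0.22 in treated cells (adjusted p = 0.000104). Corrected in the same way, GPX1 was at -0.20 (adjusted p = 0.00174) and -0.09 (adjusted p = 0.108). Transcripts of PRDX5 and GPX1 are 60.69% and 63.38% G and C, the highest of the 10. For 6 others the correction kept the direction of the calls: SOD2 was at 2.44 and 2.23, PRDX4 at 1.11 and 1.23, SOD1 at 0.66 and 0.72, PRDX2 at 0.29 and 0.40, CAT at -1.37 and -1.15 and PRDX3 at -0.51 and -0.31 log2, all called, without and with erastin in turn. The PRDX2 rises were thus smaller than the 0.67 and 0.84 log2 given above, and PRDX6 without erastin was at 0.18 (adjusted p = 0.00213). GPX8 was the 1 member that the correction added to the calls without erastin.

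In all, 9 of the 10 members were called in oeWDR76 against siNS without erastin (7 higher, 2 lower), where 73.6% of all tested genes were called (41.6% higher, 32% lower). With erastin 9 were called (7 higher, 2 lower) at a background of 76.2% (45.2% higher, 31% lower). Most tested genes were thus called in these comparisons. The members' median log2 difference was 0.27 and 0.43, beside 0.07 and 0.11 over all tested genes. Both the counts of higher members and these medians include PRDX5 and GPX1. Their differences were negative after the GC and length correction, as given above, so the medians depend on the normalisation. With median-ratio scaling the median over all genes with erastin moved from 0.109 to 0.0058, and 50.4% of calls were higher in place of 59.3%.

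**Figure D2:**
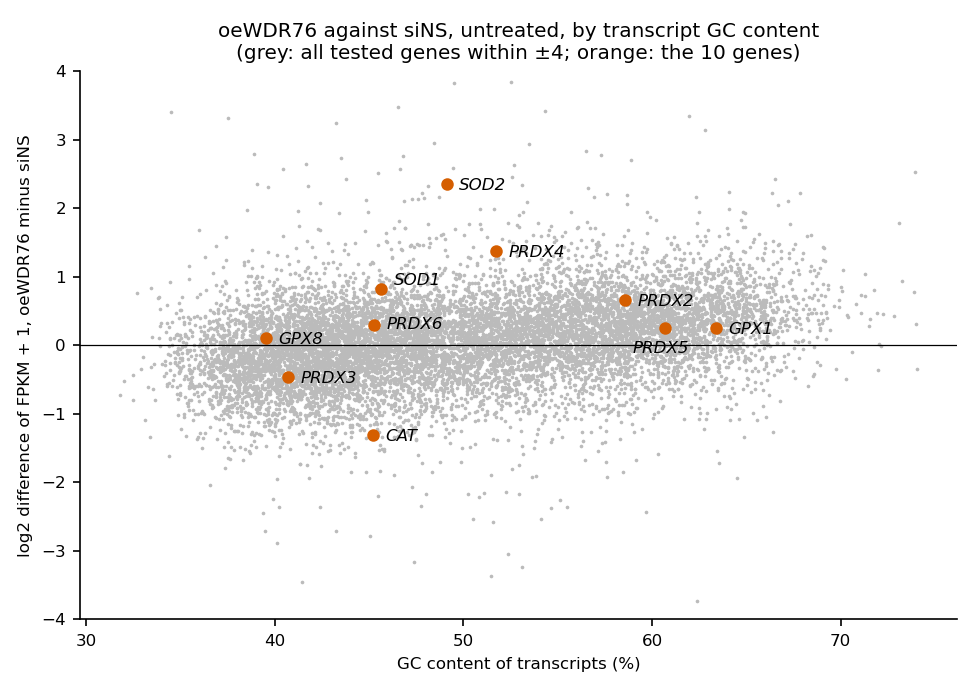
Log2 difference between oeWDR76 and siNS without erastin (vertical axis) against the GC content of the transcript in percent (horizontal axis), with 1 grey point per tested gene within the drawn range of the vertical axis and the 10 members in orange. SOD2, at 49.1% GC, sits at 2.35 and CAT, at 45.18% GC, at -1.31, and PRDX5 and GPX1, at 60.69% and 63.38% GC, both sit at 0.25.

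SOD2 shares genome sequence with other genes, among them SOD2-OT1, HNRNPH1P1 and RNU4ATAC18P on its own strand. Its model on chromosome 6 runs from 159679064 to 159762529 (GRCh38, minus strand) and overlaps WTAP and ACAT2 on the plus strand, whose reads cannot be told apart from SOD2 reads where counting takes no account of strand. WTAP, a subunit of the RNA methylation complex, was at 28.3 ± 2.9 FPKM in siNS and 65.4 ± 1.7 in oeWDR76 (log2 difference 1.18, adjusted p = 2.52e-10). ACAT2, of sterol metabolism, was lower by 0.83 log2 in oeWDR76. Against siNS, WTAP was also higher in siDCAF8 (0.63 log2 without and 0.65 with erastin) and in siDCAF8+siLSH (0.77 and 0.58). ACAT2 was lower in siDCAF8 (-0.27 and -0.26) and in siDCAF8+siLSH (-0.21 and -0.39). The part of these genes in the SOD2 values of any genotype was not tested. PRDX2 (chromosome 19, 12796820 to 12801910, minus strand) overlaps HOOK2 on the same strand, which stood at 4.0 ± 0.141 FPKM in siNS and 4.18 ± 0.0849 in oeWDR76. With erastin HOOK2 was lower in siNS (-0.42 log2, adjusted p = 0.00198) and not called in siDCAF8 (-0.17, adjusted p = 0.141). The HOOK2 response was higher in siDCAF8+siLSH than in siDCAF8 (0.50, adjusted p = 0.0145), and its part in the PRDX2 values was not tested. SOD1 overlaps RF01241 on the same strand and AP000254.1 on the other. GPX8 (chromosome 5, 55160118 to 55167301) overlaps CDC20B, listed at no more than 0.08 FPKM. PRDX2 and PRDX3 have 4 named pseudogenes each, SOD1 has 3, GPX1 has 2, and PRDX4 and SOD2 have 1, so part of their reads could be split with these copies.

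With DCAF8 depleted GPX8 was lower and PRDX4 higher, the pair that works in the endoplasmic reticulum. GPX8 was at 9.97 and 9.5 FPKM in siNS and at 4.61 and 4.64 in siDCAF8, and with erastin at 6.63 and 8.2 against 4.27 and 3.67. It fell 1.91-fold (log2 difference -0.93, SE 0.0876, adjusted p = 1.46e-07) and 1.69-fold (-0.76, adjusted p = 1.14e-06), with no overlap. PRDX4 rose from 32.29 and 30.81 FPKM to 56.47 and 58.87 (log2 difference 0.85, SE 0.113, adjusted p = 6.41e-06). With erastin PRDX4 was at 49.36 and 50.04 FPKM in siDCAF8 against 24.91 and 34.77 in siNS (0.74, adjusted p = 2.37e-05).

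CAT and PRDX5 were lower in siDCAF8 as well, with and without erastin. CAT was at 14.37 and 14.33 FPKM without erastin, under both siNS libraries (log2 difference -0.49, adjusted p = 4.54e-05), and at 12.83 and 11.84 with it (-0.43, adjusted p = 0.000126). PRDX5 was at 190.61 and 192.95 FPKM against 238.82 and 256.51 in siNS (-0.37, adjusted p = 1.77e-05), and at 182.63 and 174.06 against 241.34 and 233.12 with erastin (-0.41, adjusted p = 4.28e-06). The latter PRDX5 value was -0.24 after the GC and length correction (adjusted p = 3.97e-05). PRDX2 fell by 0.51 log2 in the comparison with erastin, to 24.77 and 23.12 FPKM, the lowest of all 16 libraries (adjusted p = 2.89e-05). This PRDX2 value was -0.36 after the GC and length correction (adjusted p = 0.00097). The PRDX2 fall without erastin, 0.20 log2 (adjusted p = 0.0365), rested on 1 siDCAF8 library at 31.77 FPKM, the other being at 39.37: without the lower value the log2 difference was -0.05 (adjusted p = 0.578), and without either siNS library the PRDX2 call was also lost (adjusted p = 0.108 and 0.105). It was lost as well with the GC and length correction (-0.11, adjusted p = 0.259) and, at 0.0814, when genes of low level were kept in the test (no filter).

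GPX1 and SOD2 changed by smaller amounts. GPX1 fell by 0.15 log2 (adjusted p = 0.0305) without erastin, from 407.41 and 421.04 to 362.67 and 384.77 FPKM, and by 0.22 with it (adjusted p = 0.00238). The first GPX1 call was lost without the first siDCAF8 library or either siNS library (adjusted p 0.0535 to 0.203) and also with the GC and length correction, no filter or quantile normalisation (0.0509, 0.0549 and 0.398). The second GPX1 call was lost with quantile normalisation (-0.05, adjusted p = 0.443), and its value was -0.13 with the GC and length correction (adjusted p = 0.0256). PRDX6, not called without erastin, was called higher after that correction (0.14, adjusted p = 0.0156). SOD2 rose by 0.30 log2 without erastin (adjusted p = 0.00106), from 40.11 and 39.58 to 48.39 and 50.51 FPKM, and with erastin differed by 0.09 (adjusted p = 0.272). In siDCAF8 against siNS, 7 of 10 members were called without erastin (2 higher, 5 lower) at a background of 61% of tested genes (31% higher, 29.9% lower). With erastin 6 of 10 were called (1 higher, 5 lower) at 64.8% (34.8% higher, 30% lower).

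In siDCAF8+siLSH cells GPX8, SOD1, PRDX4 and SOD2 were higher than in siDCAF8 cells. GPX8 was at 9.69 and 9.41 FPKM in siDCAF8+siLSH, a rise of 0.91 log2 over siDCAF8 (SE 0.0876, adjusted p = 8.30e-07), and at 7.11 and 7.96 with erastin (0.78, adjusted p = 2.31e-06). Against siNS the GPX8 differences were -0.02 and 0.02 log2 (SE 0.0876, adjusted p = 0.816 and 0.818), and the libraries of the 2 groups overlapped in both settings. SOD1 rose by 0.67 log2 over siDCAF8 (adjusted p = 2.00e-07), from 138.63 and 150.43 to 219 and 241.27 FPKM, and by 0.59 with erastin (adjusted p = 3.94e-07). All 4 siDCAF8+siLSH libraries lay above every siNS and siDCAF8 library for SOD1, which ended at 156.12 FPKM. SOD1 was not called in siDCAF8 against siNS (-0.11 and -0.08 log2, adjusted p = 0.113 and 0.211). PRDX4 reached 76.53 and 94.53 FPKM, 0.55 log2 over siDCAF8 (adjusted p = 0.000767), and 81.04 and 73.84 with erastin (0.63, adjusted p = 0.000235). SOD2 was at 60.13 and 66.92 FPKM and, with erastin, 64.94 and 61.82, in both cases 0.35 log2 over siDCAF8 (adjusted p = 0.000523 and 0.00052).

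GPX1 went the other way and was lowest in the siDCAF8+siLSH groups. It was measured at 251.99 and 275.82 FPKM without erastin, 0.50 log2 under siDCAF8 (adjusted p = 3.41e-06) and 0.65 under siNS (-0.65, adjusted p = 3.80e-08), and at 257.26 and 274.89 with erastin. The GPX1 difference from siDCAF8 with erastin was -0.18 log2 (adjusted p = 0.0155), and it was lost without the second siDCAF8 or the first siDCAF8+siLSH library given erastin (adjusted p = 0.118 and 0.151), and was -0.30 after the GC and length correction (adjusted p = 0.000129). PRDX5 was higher than in siDCAF8 by 0.19 log2 without erastin (adjusted p = 0.00715) and by 0.43 with it (adjusted p = 6.53e-06), at 214.26, 224.63, 239.56 and 241.98 FPKM. PRDX2 rose by 0.47 log2 over siDCAF8 in the erastin-treated cells (adjusted p = 0.000147), to 34.87 and 32.32 FPKM. After the GC and length correction these erastin values were 0.26 for PRDX5 and 0.31 for PRDX2, both called.

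Counted together, 7 of 10 members were called in siDCAF8+siLSH against siDCAF8 without erastin (6 higher, 1 lower), beside 48.2% of all genes (26.4% higher, 21.7% lower). With erastin 10 of 10 were called (8 higher, 2 lower), beside 49.7% (30.4% higher, 19.3% lower). Without erastin PRDX6 lost its call without either siDCAF8 library or the second siDCAF8+siLSH library (adjusted p 0.0714 to 0.195) and PRDX5 without the second siDCAF8+siLSH library (0.0607). The 10 calls with erastin became 6 to 9 when 1 library was left out. PRDX6 lost its call without any 1 of the 4 libraries compared (adjusted p 0.056 to 0.159), PRDX3 without the second siDCAF8 or the first siDCAF8+siLSH library (0.159 to 0.161), and CAT without the second library of either group (0.241 to 0.29). Median-ratio scaling and quantile normalisation each left PRDX6 uncalled in both settings (0.108 to 0.632) and CAT uncalled with erastin (0.157 and 0.0836), and with no filter CAT (0.0783) and PRDX3 (0.0541) were uncalled with erastin. After the GC and length correction PRDX6 without erastin was at 0.01 (adjusted p = 0.873) and PRDX3 there was called lower (-0.22, adjusted p = 0.000601). Against siNS, 7 were called without erastin (4 higher, 3 lower), at a background of 66.8% (35.9% higher, 30.9% lower), and 6 with it (3 higher, 3 lower), at 66% (39.3% higher, 26.7% lower). PRDX4 (1.40 and 1.36 log2), SOD1 (0.56 and 0.50) and SOD2 (0.66 and 0.44) were the rises common to both. GPX1 and CAT were the falls common to both. GPX1 was at -0.65 log2 (adjusted p = 3.80e-08) without erastin and at -0.40 (adjusted p = 1.01e-05) with it. After the GC and length correction these GPX1 values were -0.48 and -0.43, both called. CAT fell by 0.34 log2 (adjusted p = 0.00113) and by 0.23 (adjusted p = 0.0149). The second CAT fall was lost without the first library of either group (adjusted p 0.0862 to 0.151). With erastin the PRDX3 fall was lost without the first siDCAF8+siLSH or the second siNS library (0.0992 to 0.156), and the PRDX5 fall in untreated cells without the first siDCAF8+siLSH or the second siNS library (0.0643 to 0.117). With the GC and length correction PRDX5 there was at -0.03 (adjusted p = 0.553), PRDX6 was at 0.15 in place of 0.23, and PRDX3 was called lower at -0.26 (adjusted p = 5.65e-05), as PRDX3 also was with median-ratio scaling (-0.17) and quantile normalisation (-0.21). These comparisons share the siNS and siDCAF8 libraries, so their values are not independent of each other.

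**Figure D3:**
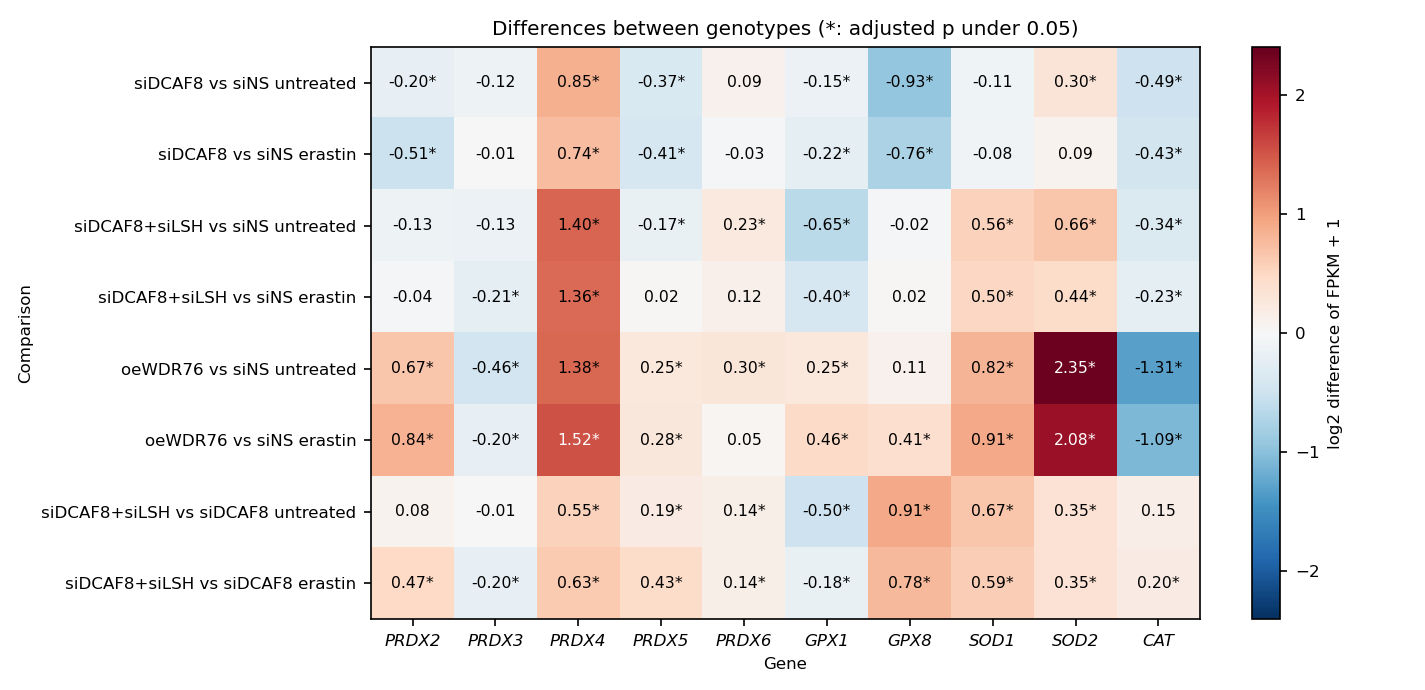
Log2 differences of the 10 members in the 8 comparisons of genotypes (rows; genes in columns), as colours with the value printed in each cell and an asterisk where it was called. SOD2 has the largest value (2.35 in oeWDR76 without erastin), GPX8 is at -0.93 and -0.76 in siDCAF8, and PRDX4 is above 0 in all 8 rows.

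Differences with erastin were smaller, running from -0.54 to 0.24 log2 over the 4 genotypes. In siNS cells 7 of 10 members were called, 2 higher and 5 lower, with 37.5% of all tested genes called (15.1% higher and 22.4% lower). The members' median log2 difference was -0.15, beside -0.03 over all tested genes. PRDX6, the glutathione-dependent peroxiredoxin, rose by 0.24 log2 (SE 0.0527, adjusted p = 0.00234), from 116.15 and 117.92 to 136.13 and 139.82 FPKM. GPX1 fell by 0.24 log2 (SE 0.0563, adjusted p = 0.00335), from 407.41 and 421.04 to 362.83 and 339.27 FPKM. Neither pair of groups overlapped, and both calls held whichever library was left out. The GC and length correction moved the GPX1 fall to -0.14 log2 (adjusted p = 0.0369).

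The other 5 calls in siNS cells each depended on at least 1 library. GPX8 fell by 0.36 log2 (adjusted p = 0.00442), from 9.97 and 9.5 to 6.63 and 8.2 FPKM, and lost its call without the first erastin library (adjusted p = 0.0875). CAT fell by 0.26 (adjusted p = 0.0157), from 20.2 and 20.87 to 17.37 and 16.62 FPKM, and lost its call without the second library of either group (0.0908 to 0.094). SOD2 rose by 0.22 log2 (adjusted p = 0.0192), from 40.11 and 39.58 to 43.64 and 49.62 FPKM, and lost its call without either untreated library or the second treated one (0.0636 to 0.229). PRDX3 fell by 0.20 log2 (adjusted p = 0.0313) and lost its call without either untreated library or the first treated one (0.059 to 0.277). PRDX2 fell by 0.23 log2 (adjusted p = 0.0302), from 40.92 and 40.87 to 34.04 and 35.19 FPKM, and lost its call without any 1 of the 4 (0.0661 to 0.132). After the GC and length correction PRDX2 was at -0.15 (adjusted p = 0.143), and median-ratio scaling, quantile normalisation or no filter left PRDX2 (0.0665 to 0.0739) and PRDX3 (0.0571 to 0.0737) uncalled. PRDX4, PRDX5 and SOD1 were not called, at -0.10, -0.06 and -0.06 log2, and without the second erastin library, at 34.77 FPKM, PRDX4 was at -0.33 (adjusted p = 0.021).

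In siDCAF8 cells erastin lowered 3 of 10 members and raised 0, with 40.9% of all genes called (18.3% higher, 22.5% lower). PRDX2 fell the most, by 0.54 log2 (SE 0.0803, adjusted p = 7.78e-05), from 39.37 and 31.77 FPKM to 24.77 and 23.12. After the GC and length correction PRDX2 was at -0.41 (adjusted p = 0.00131). GPX1 fell by 0.31 log2 (adjusted p = 0.000409), from 362.67 and 384.77 to 293.59 and 307.99 FPKM, and by 0.15 after the GC and length correction (adjusted p = 0.0242). CAT fell by 0.20 (adjusted p = 0.0467) and lost its call without any 1 of the 4 libraries (adjusted p 0.0511 to 0.25) with the replicate number as a block (0.0527), and with quantile normalisation, median-ratio scaling or no filter (0.0532 to 0.0886). PRDX6 was called higher with quantile normalisation (0.19, adjusted p = 0.00667). With the GC and length correction 5 members were called lower, PRDX3 (-0.24, adjusted p = 0.000478) and GPX8 (-0.35, adjusted p = 0.00361) joining the other 3.

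In oeWDR76 cells erastin left 0 of 10 members called, where limma called 1.45% of all tested genes (0.471% higher, 0.977% lower). At an unadjusted p under 0.05 the count was also 0, and the 10 differences ran from -0.06 to 0.06 log2. SOD2 stood at 219.06 and 197.31 FPKM without and 197.24 and 203.05 with erastin, and the 2 groups overlapped. In siDCAF8+siLSH cells 2 of 10 were called, both lower, at 20.2% of all genes (10.6% higher, 9.54% lower). PRDX3 fell by 0.28 log2 (adjusted p = 0.00868), from 115.3 and 128.77 to 97.25 and 103.37 FPKM, and GPX8 by 0.31 (adjusted p = 0.0203), from 9.69 and 9.41 to 7.11 and 7.96. PRDX3 lost its call without the second untreated or the first treated library (adjusted p 0.082 to 0.112), and GPX8 without either untreated or the first treated library (0.0695 to 0.162), with the GC and length correction (0.0531) or with no filter (0.0594). PRDX6 was called higher with the GC and length correction (0.18) or quantile normalisation (0.17), and PRDX5 with the latter (0.14).

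**Figure D4:**
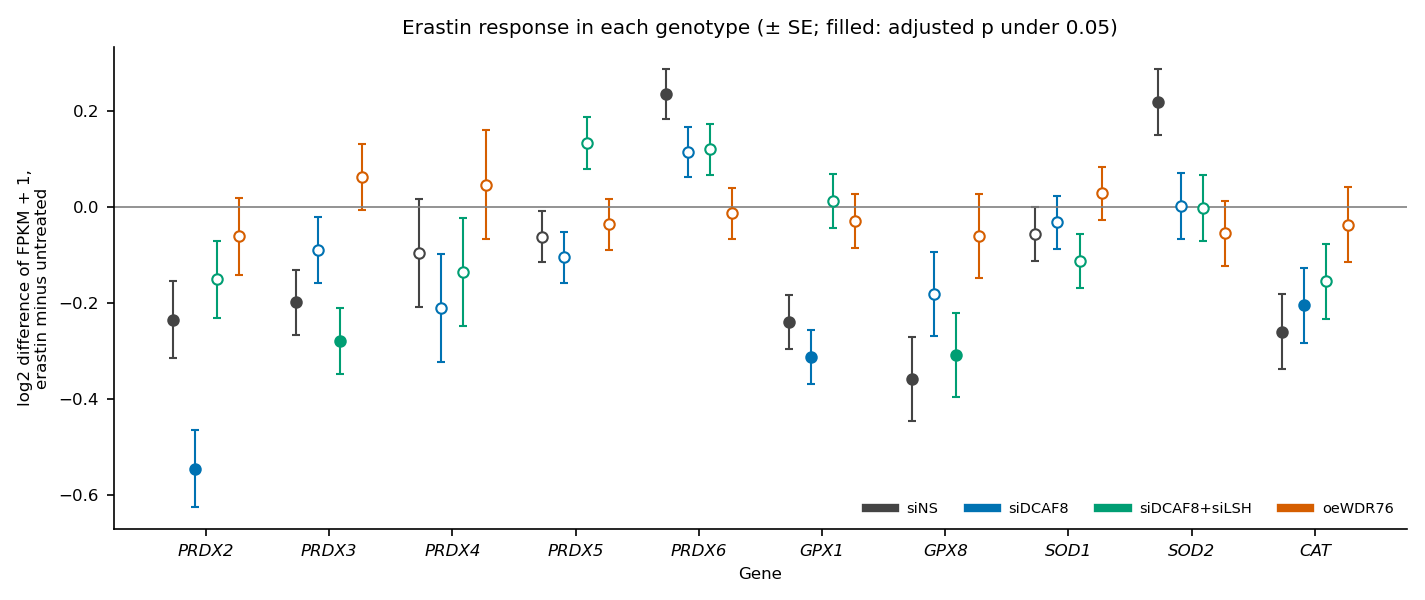
Log2 difference between erastin-treated and untreated cells (vertical axis) for each of the 10 members (horizontal axis) in the 4 genotypes (colours), with bars of 1 SE and filled points where the difference was called. The oeWDR76 points lie between -0.06 and 0.06, and PRDX2 in siDCAF8, at -0.54, is the farthest from 0.

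Whether the response to erastin differed between genotypes was tested as a difference of differences. Between siDCAF8 and siNS 0 of 10 members were called by limma (20.8% of all genes, 11% higher and 9.84% lower), and 2 had an unadjusted p under 0.05: PRDX2 (-0.31, SE 0.113, adjusted p = 0.0621; 0.00569 without the second siDCAF8 library) and SOD2 (-0.22, SE 0.097, adjusted p = 0.125). PRDX2 was called with a filter of 5 FPKM (adjusted p = 0.0484), and PRDX6 with the GC and length correction (-0.19, adjusted p = 0.0432). Between oeWDR76 and siNS 1 of 10 was called (14.1% of all genes, 9.04% higher and 5.11% lower). The PRDX6 response was lower in oeWDR76 than in siNS (-0.25 log2, SE 0.0745, adjusted p = 0.0355), with 143.55 and 144.39 FPKM untreated and 135.39 and 150.39 treated in that genotype. This PRDX6 call was lost without any 1 of the 8 libraries other than the second erastin-treated oeWDR76 library (adjusted p 0.0648 to 0.171). PRDX3 was called with the GC and length correction (0.20) or the replicate block (0.26), SOD2 with median-ratio scaling (-0.32) or quantile normalisation (-0.31), and GPX1 with the latter (0.23).

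Between siDCAF8+siLSH and siDCAF8, 3 of 10 members were called, all with the higher response in siDCAF8+siLSH (23.5% of all genes called, 14.2% higher and 9.24% lower). GPX1 differed by 0.32 log2 (SE 0.0796, adjusted p = 0.0112), PRDX2 by 0.39 (SE 0.113, adjusted p = 0.0219) and PRDX5 by 0.24 (SE 0.0757, adjusted p = 0.0327). In siDCAF8+siLSH cells themselves PRDX5 went from 214.26 and 224.63 to 239.56 and 241.98 FPKM, which was not called (0.13, adjusted p = 0.0889), and PRDX2 from 39.29 and 35.52 to 34.87 and 32.32 (-0.15, adjusted p = 0.205). GPX1 kept its call without any 1 of the 8 libraries, and PRDX2 lost it without the first untreated or second treated siDCAF8 library or the second untreated or first treated siDCAF8+siLSH library (adjusted p 0.073 to 0.119). PRDX5 lost its call without any 1 of the 8 other than the first treated siDCAF8 and the second untreated siDCAF8+siLSH library (0.0629 to 0.109). With no filter PRDX2 (0.0634) and PRDX5 (0.0559) were uncalled, and PRDX5 also with median-ratio scaling (0.073) or quantile normalisation (0.0554). After the GC and length correction none of the 3 was called: GPX1 was at 0.07 (adjusted p = 0.652), PRDX2 at 0.21 (0.35) and PRDX5 at 0.02 (0.873). The GC slope of deviations from the mean of all 16 libraries was 0.0307 and -0.0246 log2 per 10% in untreated siDCAF8 libraries. With erastin this relative slope was -0.138 and -0.14 in siDCAF8. In siDCAF8+siLSH it was -0.113 and -0.16 without and -0.053 and -0.0645 with erastin.

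Among genes listed as electron donors and repair of the peroxiredoxins, the lead responses to erastin were wider than any of the members. The list also holds TXNIP and SESN2, described below, which are not electron donors. Of its 15 tested genes, 6 rose and 3 fell in siNS cells, at a background of 15.1% higher and 22.4% lower. For this and the following lists, backgrounds not repeated are those given above for the members in the same comparison. Values of the listed genes come from the fit of all 16 libraries alone. Their dependence on normalisation, GC content or single libraries is not shown. TXNRD1, the cytosolic thioredoxin reductase, rose by 0.99 log2 (adjusted p = 9.50e-07) there, and the TXNRD1 rise was 1.09 log2 in siDCAF8 (adjusted p = 4.00e-07) and 1.02 in siDCAF8+siLSH (adjusted p = 2.16e-06). The TXNRD1 response was smaller in oeWDR76 than in siNS (-0.77 log2, adjusted p = 0.0014). SESN2, a sestrin that binds amino acids and restrains mTORC1, fell by 1.21 log2 (adjusted p = 7.10e-08) in siNS and by 0.55 in oeWDR76 (adjusted p = 0.0048). The thioredoxin inhibitor TXNIP fell by 1.68 log2 in siNS (adjusted p = 1.24e-07), by 0.92 in siDCAF8 and by 0.59 in oeWDR76. In siDCAF8 4 of the 15 rose and 4 fell, in siDCAF8+siLSH 2 rose and 2 fell, and in oeWDR76 SESN2 and TXNIP were the 2 that fell and 0 rose. Against siNS, 7 of the 15 were higher and 5 lower in oeWDR76 in either setting, 7 and 5 in siDCAF8+siLSH in either setting, and 6 and 3 (untreated) or 4 and 3 (erastin) in siDCAF8. Differences of responses were called for 2 higher and 2 lower between siDCAF8 and siNS, 3 and 2 between oeWDR76 and siNS, and 2 and 1 between siDCAF8+siLSH and siDCAF8.

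Of the other peroxidases and dismutases, 4 of 10 were expressed enough to be tested. PRDX1, a close relative of PRDX2 that the naming rule did not pick, stood at 377 ± 15 FPKM in siNS and 378 ± 23.2 with erastin, a difference that was not called. MGST1, a microsomal glutathione transferase with peroxidase activity, rose with erastin in siNS (0.78 log2, adjusted p = 2.84e-06), siDCAF8 (0.64, adjusted p = 2.21e-05) and siDCAF8+siLSH (0.33, adjusted p = 0.00917). The MGST1 response was smaller in oeWDR76 than in siNS (-0.55, adjusted p = 0.0052). GPX4, which reduces lipid peroxides in membranes, rose by 0.19 log2 in siNS (adjusted p = 0.00723). In oeWDR76 0 of the 4 were called with erastin, beside 1.45% of all tested genes. In oeWDR76 against siNS 3 of 4 were higher and 0 lower in either setting, beside 41.6% higher without erastin and 45.2% with it.

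Oxidative folding in the endoplasmic reticulum, which produces hydrogen peroxide that PRDX4 and GPX8 consume, is the task of 10 listed genes. In siDCAF8 7 of them fell with erastin and 1 rose, at a background of 22.5% lower and 18.3% higher, led by P4HB, the main protein disulfide isomerase (-0.55 log2, adjusted p = 2.04e-06), TXNDC5 (-0.44, adjusted p = 7.23e-06) and PDIA4 (-0.53, adjusted p = 0.000111). Values of these folding genes are not corrected for GC content, and the GC slope shifted with erastin in siDCAF8 as given above. In siNS 1 rose and 1 fell, in siDCAF8+siLSH 1 rose and 2 fell, and in oeWDR76 0 of 10 were called. The difference of responses between siDCAF8 and siNS was itself called for 5 of 10, all more negative in siDCAF8, among them PDIA3 (-0.37, adjusted p = 0.00267), PDIA6 (-0.35, adjusted p = 0.00349) and PDIA4 (-0.54, adjusted p = 0.00397). PRDX4 itself had a difference of responses of -0.11 log2 (SE 0.159, adjusted p = 0.645) and GPX8 one of 0.18 (SE 0.124, adjusted p = 0.331). In siDCAF8 against siNS 2 of 10 folding genes were higher and 4 lower without erastin and 1 and 8 with it, in oeWDR76 6 and 2 or 7 and 2, and in siDCAF8+siLSH 3 and 5 or 3 and 6.

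Peroxisomal import and beta-oxidation genes, which share their organelle with CAT, gave 4 falls and 0 rises of 18 with erastin in siNS, PEX16 (-0.29), PEX7 (-0.49) and PEX10 (-0.22 log2) leading. That share of falls was near the background of 22.4% lower (15.1% higher). In siDCAF8 2 rose and 2 fell, in siDCAF8+siLSH 4 rose and 0 fell, and in oeWDR76 0 of 18 were called, beside 1.45% of all tested genes. In siDCAF8 against siNS 10 of 18 were higher and 3 lower without erastin, and 11 higher and 1 lower with it, while CAT was lower in both. The backgrounds were 31% higher and 29.9% lower without erastin, and 34.8% and 30% with it. In oeWDR76 against siNS, where CAT fell the most, 6 were higher and 7 lower without erastin, beside 41.6% and 32% of all tested genes.

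Selenocysteine insertion factors, which GPX1 needs and GPX8 does not, gave 3 falls and 0 rises of 7 with erastin in siNS: SEPHS2 (-0.39 log2, adjusted p = 0.000175), TRNAU1AP (-0.46, adjusted p = 0.000811) and EEFSEC (-0.34, adjusted p = 0.0012). The background in siNS was 22.4% lower and 15.1% higher, for the 2 lists below as well. In siDCAF8, where GPX1 fell too, 1 of the 7 rose and 1 fell, and in oeWDR76 and siDCAF8+siLSH 0 were called, beside 1.45% and 20.2% of all tested genes. The difference of responses between siDCAF8 and siNS was called higher for 4 of the 7 and lower for 0, beside 11% and 9.84% of all tested genes. Of 5 tested sources of superoxide and hydrogen peroxide, 3 fell and 1 rose in siNS, with NOX5, a calcium-activated NADPH oxidase, at -0.59 log2 (adjusted p = 1.35e-05) and POR, the cytochrome P450 reductase, at 0.32 (adjusted p = 0.001). Methionine sulfoxide reductases gave 2 falls of 4 in siNS, MSRB3 (-0.25) and MSRB2 (-0.32 log2), and 1 fall in siDCAF8, 1 rise in siDCAF8+siLSH and 0 calls in oeWDR76.

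Regulators of these genes gave 6 rises and 0 falls of 13 with erastin in siNS, PPARGC1B (0.50 log2, adjusted p = 0.000121), TNFAIP3 (0.47, adjusted p = 0.000194) and FOXO3 (0.37, adjusted p = 0.000713) having the lowest p. The background was 15.1% higher and 22.4% lower. In siDCAF8 3 rose and 2 fell, and in siDCAF8+siLSH 2 rose and 1 fell. In oeWDR76 erastin lowered TNFAIP3 (-0.42, adjusted p = 0.0108) and NFKBIA (-0.37, adjusted p = 0.0274) and raised 0. In oeWDR76 against siNS without erastin 6 of the 13 were higher and 3 lower, a share of higher genes near the background of 41.6%.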

How the data were processed

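Per the submitters' processing notes, the authors made the deposited FPKM values with StringTie on GRCh38. Neither the labels nor the notes name the StringTie version, the aligner, the annotation or any use of strand. Per the labels' protocols, RNA was taken with Trizol, amplified by Smart-seq v4, made into libraries with a NEBNext kit and read on a BGISEQ500. Of 24107 entries 6555 were empty and 28 symbols turned into dates were restored. Treated groups were taken from the titles, since the protocol text names erastin for all libraries. The table gives no counts, so the depth is unknown and no counting interval is given.

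Values were analysed as log2(FPKM + 1), and the 11260 genes whose FPKM averaged 1 or more were tested. One limma 3.58.1 model (R 4.3.3) held 8 group means with a mean-variance trend (residual degrees of freedom 8, prior 8.57). The tests of 15 contrasts were two-sided, adjusted by Benjamini-Hochberg within each, and the model was tested on simulated data. Python 3.11.15, pandas 2.3.3, numpy 2.4.6 and matplotlib 3.10.9 served for tables and plots. Gene models and GC content came from GENCODE, promoters from RefSeq.

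The members, gene lists and alternatives were chosen with earlier results of these data known. All 10 members are described, those with the widest range of group means or a called difference of responses in every library. Up to 3 called genes with the lowest p are named per list in the erastin contrasts and differences of responses. Alternatives were another pseudocount (0.1), no filter, a filter of 5 FPKM, median-ratio scaling, quantile normalization, GC and length correction, a replicate block and leaving out each library.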

Additional observations from a re-analysis of the deposited data

Results flagged for a closer look

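The difference of erastin responses between 2 genotypes passed the test for 4 members, which is what marks them for a closer look. Between oeWDR76 and siNS it was -0.25 log2 for PRDX6, whose treated oeWDR76 libraries, at 135.39 and 150.39 FPKM, lie on both sides of the untreated ones. Between siDCAF8+siLSH and siDCAF8 it was 0.39 for PRDX2, 0.24 for PRDX5 and 0.32 for GPX1. The last 3 were not called after correction for GC content and length, and the part of GC content in them was not tested further.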

How the results depend on the processing

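Of 150 combinations of a member and a comparison, 77 were called, and 47 of these kept their call under every alternative and without any 1 library. With a pseudocount of 0.1 none of the 150 changed. The rises of PRDX5 and GPX1 in oeWDR76 reversed with the GC and length correction, to -0.16 and -0.22 for PRDX5 and -0.20 and -0.0907 for GPX1 (without and with erastin; the same with the replicate block added), and PRDX6 with erastin reversed to -0.20 with quantile normalization. The cause was not tested.

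Members called in siDCAF8 under erastin numbered 5 in place of 3 with the GC and length correction, with or without the block. In siDCAF8+siLSH they numbered 1 with no filter and 4 with quantile normalization, in place of 2. For the difference of responses between siDCAF8 and siNS they numbered 1 with the filter of 5 FPKM or the GC correction, in place of 0. Between oeWDR76 and siNS they numbered 2 with the GC correction, median-ratio scaling or the replicate block and 3 with quantile normalization, in place of 1. Between siDCAF8+siLSH and siDCAF8 they numbered 0 with the GC correction and 1 with no filter, in place of 3, and genes called fell from 2642 to 281 (235 with the block) and 1755. Genes called with erastin in oeWDR76 numbered 84 with no filter, in place of 163, and the cause was not tested.

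Leaving out 1 library gave 3 to 5 members and 2796 to 3277 genes for erastin in siNS (all: 7 and 4223), 3021 to 3978 genes in siDCAF8 (4600), 27 to 39 genes in oeWDR76 (163), and 0 to 3 members and 1247 to 2098 genes in siDCAF8+siLSH (2 and 2270). It gave 6 to 9 members for siDCAF8+siLSH against siDCAF8 with erastin (10). For the differences of responses it gave 0 to 1 members and 1315 to 2330 genes (siDCAF8 against siNS), 0 to 2 and 906 to 1313 (oeWDR76 against siNS) and 1 to 3 and 1008 to 3003 (siDCAF8+siLSH against siDCAF8). Median-ratio scaling moved the share of calls that were higher by over 10 percentage points for erastin in siNS (40.4% to 50.6%), siDCAF8+siLSH against siDCAF8 and against siNS with erastin (61.1% to 48.5% and 59.5% to 49.1%), and the responses of oeWDR76 and siDCAF8+siLSH (63.9% to 50.3% and 60.6% to 48.3%).

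The labels do not say that a replicate number marks a shared culture or day. Deviations of same-numbered libraries correlated at -0.208 to 0.389 over the pairs of groups, the highest being siDCAF8 with siDCAF8+siLSH, so a pairing was not established and the block served as an alternative. With the replicate block CAT lost its call for erastin in siDCAF8 (adjusted p = 0.0527) and PRDX3 gained one for the response of oeWDR76 against siNS (adjusted p = 0.043), and no other member's call changed. With 2 libraries a group and unknown depth, small differences could not be resolved.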
